A study of Mus musculus with 4 samples.

Results

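The Rab genes encode small GTPases of the Ras superfamily that give each membrane of the secretory and endocytic pathways its identity. They were taken as all genes whose symbol is Rab followed by a number and letters or digits, without the genes of Rab-interacting, Rab-activating and antisense transcripts. Of 12393 genes with a probe set of a single symbol, 50 were Rab genes, each represented by its brightest probe set. The RefSeq gene table holds 59 protein-coding Rab genes, and the others were not analysed here. Of these, 40 passed a filter on the mean signal over all 4 arrays and were tested, and 10 lay below it.

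Expression was measured on Affymetrix arrays in tumour-associated macrophages (TAMs) freshly sorted by flow cytometry from tumours of GIST mice, which carry gastrointestinal stromal tumours. The vehicle group was the control, and the other group drank water with imatinib, a tyrosine kinase inhibitor, at 600 mg/L. Both groups had 8 mice, treatment lasted 2 weeks, and tumours of both were digested with collagenase. Sorted cells were pooled by group and each pool was run on 2 arrays from 200 ng of RNA, while the sample titles call these arrays biological replicates. The p-values thus reflect how far arrays of a group differ, possibly for technical reasons alone, and not how far mice differ. The sources used here do not give the strain, allele and age of the mice or the gate of the sort.

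A Rab protein cycles between a GDP-bound form in the cytosol and a GTP-bound form on a membrane. Exchange factors load GTP, GTPase-activating proteins end the active state, and effectors such as tethers and motors are recruited in between. In phagocytes the change from Rab5 to Rab7 marks the maturation of a phagosome towards the lysosome. In polarised epithelium Rab17 and Rab25 serve apical recycling and transcytosis.

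The comparison asked how the Rab genes differed between macrophages of imatinib-treated and of vehicle-treated mice. Rab43, Rab20, Rab7, Rab9 and Rab8b rose with imatinib by 1.24-fold to 1.73-fold, and Rab17 fell to 0.454 of its vehicle level. Folds are 2 to the log2 difference of (signal + 32). These were 5 higher and 1 lower call among 40 tested Rab genes, 12.5% and 2.50%, by limma with Benjamini-Hochberg adjustment over all 8156 genes tested and a threshold of 0.05. Over all tested genes 6.74% were called higher and 8.85% lower, 15.6% in either direction. The median log2 difference, imatinib minus vehicle, was 0.08 over the 40 tested Rab genes and -0.02 over all genes tested. Without the filter, Rab43 and Rab7 were called higher and no Rab gene lower. With the replicate number as a block the same 2 were higher. Without the variance trend, or with treat against 1.2-fold, Rab43 was the only one higher. Rab17 was still called lower with the block (limma adjusted p = 0.018) and without the trend (0.024), but not with treat (0.053). Without the filter the median was 0.01 over all 50 Rab genes and -0.05 over all 12393 genes.

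The arrays of the groups overlapped in 18 of the 40 genes and did not in 22. Over all 8156 genes tested they overlapped in 3574, a similar share. Both imatinib arrays lay above both vehicle arrays in 18 (45.0%, against 26.1% of all genes tested) and below them in 4, against 30.1%. The other 34 genes were not called, and their log2 differences ran from -0.76 for Rab4a to 0.34 for Rab31. Some were as large as those of called genes, with a larger SE, such as 0.29 for Rab4a against 0.08 for Rab8b.

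**Figure D1:**
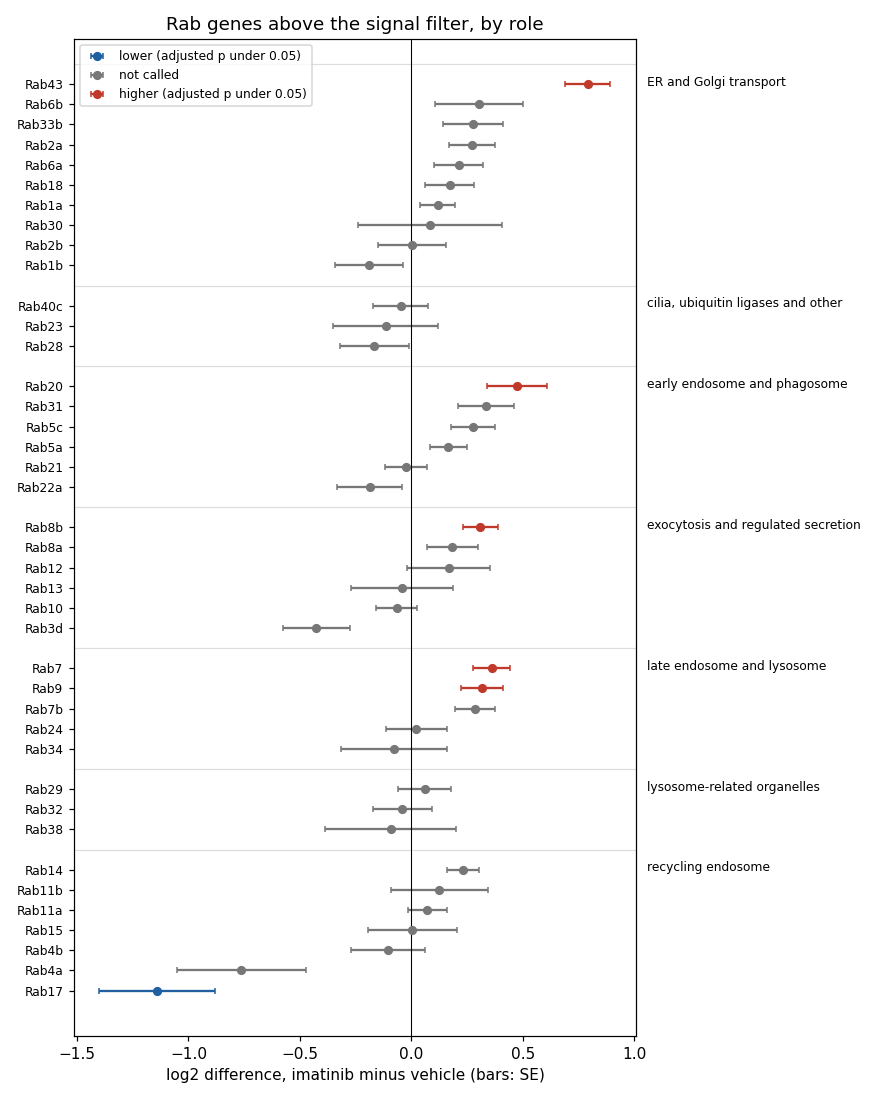
Log2 difference between imatinib and vehicle (horizontal axis, log2 units, bars are SE) for the 40 tested Rab genes, grouped by role. The 5 red genes, from Rab8b at 0.31 to Rab43 at 0.79, were called higher and the blue Rab17 at -1.14 lower, and most grey genes lie close to 0.

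Promoters of 4 called genes, the epithelial Rab17 and the 3 phagocyte Rabs, are shown to give the sequence next to which their transcripts start. They are the 250 bases before the RefSeq start on GRCm38.p6, read 5′ to 3′ on the gene's strand, with CpG dinucleotides in capitals. The minus strand carries the 4 genes printed: Rab17 at chr1:90967668-90967917, Rab43 at chr6:87812165-87812414, Rab7 at chr6:88045271-88045520 and Rab20 at chr8:11478641-11478890. RefSeq lists 4 starts for Rab43 and 2 for Rab7, and the most upstream is given.
Rab17: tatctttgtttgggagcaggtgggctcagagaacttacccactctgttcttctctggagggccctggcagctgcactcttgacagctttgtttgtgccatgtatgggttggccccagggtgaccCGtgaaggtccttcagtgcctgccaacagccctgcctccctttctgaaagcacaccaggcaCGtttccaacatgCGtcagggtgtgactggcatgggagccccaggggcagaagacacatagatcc
Rab43: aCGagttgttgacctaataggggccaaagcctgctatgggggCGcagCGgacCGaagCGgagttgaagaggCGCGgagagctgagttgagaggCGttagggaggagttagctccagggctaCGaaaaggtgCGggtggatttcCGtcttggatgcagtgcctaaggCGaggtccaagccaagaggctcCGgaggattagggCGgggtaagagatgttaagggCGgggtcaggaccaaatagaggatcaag
Rab7: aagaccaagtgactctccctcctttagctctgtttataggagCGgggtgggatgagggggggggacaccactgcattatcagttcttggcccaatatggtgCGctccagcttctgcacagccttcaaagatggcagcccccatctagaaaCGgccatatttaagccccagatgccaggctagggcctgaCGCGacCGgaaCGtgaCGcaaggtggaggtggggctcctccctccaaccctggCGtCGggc
Rab20: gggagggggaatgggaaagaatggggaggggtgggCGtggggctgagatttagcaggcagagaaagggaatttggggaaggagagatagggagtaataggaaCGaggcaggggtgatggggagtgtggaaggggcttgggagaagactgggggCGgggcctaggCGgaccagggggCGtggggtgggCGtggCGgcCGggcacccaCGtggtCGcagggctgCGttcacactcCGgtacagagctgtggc
The Rab17 window held 3 CpG dinucleotides, against 15 for Rab43, 10 for Rab7, 12 for Rab20, 20 for Rab8b and 7 for Rab9. Its GC content of 56.8% lay within the range of the other 5, from 48.8% for Rab9 to 65.2% for Rab20. The median was 17 over the 42 Rab genes found in the promoter table and 6 over all 32851 windows, which include several per gene.

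These windows were searched on both strands for 4 motifs. The E-box CACGTG, bound by factors of lysosomal genes among others, was in the Rab20 window and in no other of the 6 called genes. It was in 4 of 42 Rab windows (9.52%) and 6.02% of all windows. The PU.1-type site GAGGAAGT (2.44% of all windows), the ETS site CCGGAAG (6.91%), which shares the letters GGAAG with it, and the AP-1 site TGANTCA (6.75%) were in none of the 6. They were in 2, 3 and 1 of the 42 Rab windows.

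In the group of ER and Golgi transport, 1 of 10 tested genes was higher and none lower (2 and 0 at an unadjusted p under 0.05 by limma). The counts of calls in this and the following groups stand beside 6.74% higher and 8.85% lower over all genes tested. Their counts at an unadjusted p under 0.05 by limma stand beside 1031 higher and 1259 lower of all 8156 genes tested. Rab43, a Golgi Rab that also takes part in phagosome maturation and in cross-presentation by dendritic cells, read 767.9 and 750.6 under vehicle, and 1299 and 1380 under imatinib. The imatinib arrays were both well above the vehicle arrays. The log2 difference was 0.79 ± 0.10 (SE, n = 2, limma adjusted p = 0.00037), a 1.73-fold increase. Its second probe set lay the other way, with 171.9 and 146.7 against 105.5 and 142.5 and both imatinib arrays below vehicle (log2 difference -0.30, adjusted p = 0.45 with each probe set on its own). When both probe sets of Rab43 were averaged the difference was 0.25 (adjusted p = 0.28) and was no longer called, so the call rests on the brighter probe set.

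Rab1a, which carries vesicles from the ER to the Golgi and is the brightest probe set of this group, had signals of 4738 and 5106 against 5453 and 5239. The groups did not overlap, but the log2 difference of 0.12 was not called (95% interval -0.06 to 0.29). Rab2a, Rab6a, Rab18, Rab33b and Rab6b also had both imatinib arrays above the vehicle arrays, with differences of 0.17 to 0.30 and no call. Rab1b stood at -0.19 and Rab2b at 0.00. The probe sets of Rab2a disagreed. The brightest gave 0.27. One of similar signal, with 1680 and 1652 against 1501 and 1560, had both imatinib arrays below vehicle (log2 difference -0.12, not called). A dimmer one with signals of 563.2 and 479.2 against 265.4 and 325.8 was called lower (log2 difference -0.76, adjusted p = 0.0084 with each probe set on its own). Others above the filter stood at 0.20, -0.11 and -0.65 without a call.

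Among the Rabs of late endosomes and lysosomes, 2 of 5 tested genes were higher and none lower (3 and 0 at an unadjusted p under 0.05). The calls were 40% and 0% of this small group, against 6.74% and 8.85% of all genes tested. Rab7, the GTPase that drives fusion of late endosomes, phagosomes and autophagosomes with lysosomes, read 2413 and 2500 under vehicle, then 3279 and 3047 under imatinib. Both imatinib arrays were higher, by 1.28-fold (log2 difference 0.36 ± 0.08, SE, n = 2, limma adjusted p = 0.015). A dimmer Rab7 probe set showed no such difference, with 448.3 and 440.6 against 412.4 and 473.5 (log2 difference -0.01), and the mean over both was not called (0.18, adjusted p = 0.20). Without vehicle replicate 1 or imatinib replicate 1 the Rab7 call was lost as well (adjusted p = 0.080 and 0.096). Rab9, which returns mannose 6-phosphate receptors from late endosomes to the Golgi, had signals of 1563 and 1425 against 1849 and 1886, 1.25-fold (adjusted p = 0.043). Without any 1 of the 4 arrays its adjusted p ranged from 0.057 to 0.18, so each array was needed for the call.

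Rab7b, a late endosomal Rab of monocytes and macrophages that limits Toll-like receptor signals, lay just above the threshold. Its signals were 1558 and 1612 against 1914 and 1965, without overlap (log2 difference 0.29 ± 0.09, SE, adjusted p = 0.053). Rab24, a Rab linked to autophagy, stood at 0.02 and Rab34, which takes part in fusion of phagosomes with lysosomes, at -0.08, both with overlapping arrays.

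Of 6 tested Rabs of early endosomes and phagosomes, 1 was higher and none lower (3 and 0 at an unadjusted p under 0.05). Rab20, which joins the maturing macrophage phagosome, had vehicle signals of 385.7 and 465.1 and imatinib signals of 625.2 and 577.5. Both imatinib arrays were above both vehicle arrays, and the increase was 1.39-fold (log2 difference 0.47 ± 0.14, SE, n = 2, adjusted p = 0.039). Without vehicle replicate 1, imatinib replicate 1 or imatinib replicate 2 the adjusted p was 0.189, 0.185 and 0.068. The call was also lost without the filter (0.086), without the variance trend (0.108), with the replicate block (0.058) and with treat against 1.2-fold (0.541). Of the early endosomal Rab5 genes, which drive endosome fusion, Rab5c had a difference of 0.28 (adjusted p = 0.087) and Rab5a, the brightest probe set here, of 0.17 (adjusted p = 0.22), both without overlap of the arrays. Rab5b was below the filter, with signals of 48.9 to 81.4.

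Rab31, which carries cargo from the trans-Golgi to endosomes, had signals of 645.4 and 769.3 against 961.3 and 839.1 and was not called (log2 difference 0.34 ± 0.13, SE, adjusted p = 0.10). A dimmer Rab31 probe set lay the other way, at -0.47 (adjusted p = 0.36). Rab22a, a sorting Rab of early endosomes, was at -0.19 and Rab21, which moves integrins, at -0.02.

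**Figure D2:**
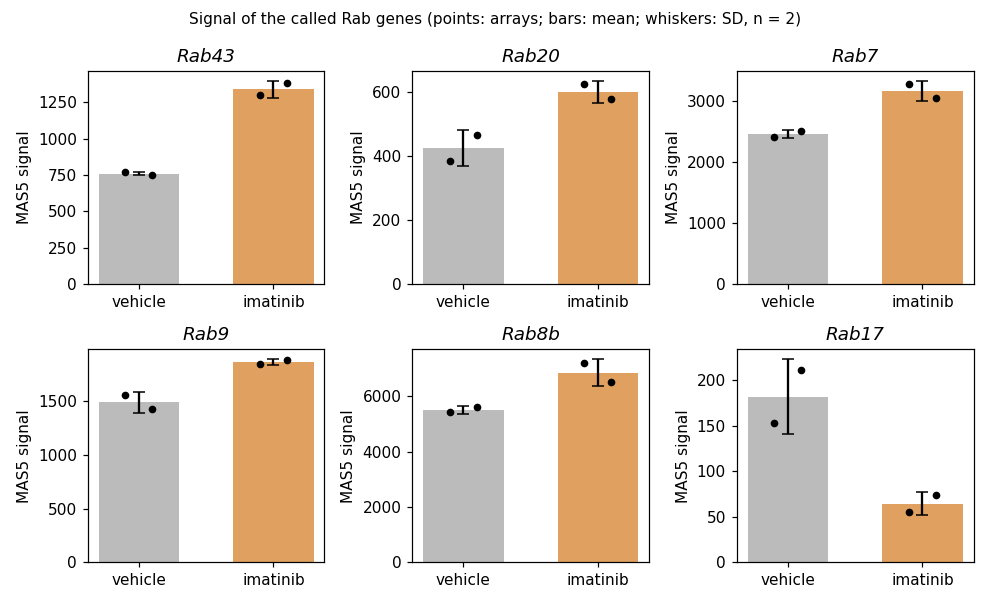
MAS5 signal (vertical axes, linear scale from 0) of the 6 called Rab genes on the vehicle and imatinib arrays; points are arrays, bars means and whiskers SD of 2 arrays. The arrays of the groups do not overlap in any panel; Rab43 runs from 750.6 to 1380 and Rab17 from 55.4 to 211.0.

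In the recycling group none of 7 tested genes was higher and 1 was lower (1 and 2 at an unadjusted p under 0.05). Rab17, a Rab of polarised epithelial cells that serves transcytosis, had vehicle signals of 152.9 and 211.0 and imatinib signals of 55.4 and 73.8. Both imatinib arrays were far below the vehicle arrays (log2 difference -1.14 ± 0.26, SE, n = 2, limma adjusted p = 0.013). Both imatinib signals were under the filter value of 82.9, so Rab17 was tested through its vehicle signals, and without the filter it was not called (adjusted p = 0.055). Its other probe set was below the filter and pointed the same way, with 55.1 and 39.0 against 3.83 and 4.53. Without vehicle replicate 2 the difference was -0.94 (adjusted p = 0.12) and without imatinib replicate 1 it was -1.002 (adjusted p = 0.052), and Rab17 was then not called.

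Rab4a, which returns receptors rapidly from early endosomes to the surface, had signals of 151.2 and 105.1 against 50.5 and 73.8 (log2 difference -0.76 ± 0.29, SE, adjusted p = 0.11). The groups did not overlap, and the gene was not called. Both imatinib signals were under the filter value of 82.9, so Rab4a was tested through its vehicle signals. Its relative Rab4b was at -0.11 with overlapping arrays. Rab14, which links the Golgi with endosomes and is found on phagosomes, lay just above the threshold with 6241 and 6065 against 7307 and 7149 (log2 difference 0.23 ± 0.07, SE, adjusted p = 0.058). Its brightest probe set is of the _s_at type. Without _x_at and _s_at probe sets the difference was 0.15 (limma adjusted p = 0.35). The dimmer Rab14 probe sets, each on its own, ran from -0.11 to 0.37. The general recycling Rabs Rab11a (0.07, 95% interval -0.12 to 0.27) and Rab11b (0.13) and the endosomal Rab15 (0.00) were not called.

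Among the exocytic Rabs, 1 of 6 tested was higher and none lower (1 and 1 at an unadjusted p under 0.05). Rab8b, which directs vesicles from the Golgi to the plasma membrane, had vehicle signals of 5413 and 5606 and imatinib signals of 7191 and 6502. The imatinib arrays were the higher ones, by 1.24-fold (log2 difference 0.31 ± 0.08, SE, n = 2, adjusted p = 0.025). A second probe set had signals of 13.1 or lower on every array, and the mean over both was 0.07 (adjusted p = 0.77). The call was lost without vehicle replicate 1, vehicle replicate 2 or imatinib replicate 1, with an adjusted p of 0.13, 0.066 and 0.14. Its close relative Rab8a was at 0.18, Rab10 at -0.07 (95% interval -0.27 to 0.14) and Rab12 at 0.17. Dimmer Rab10 probe sets, each on its own, stood at 0.06 and 0.27 without a call.

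Of the Rabs of lysosome-related organelles, none of 3 tested genes was called (limma, 0 at an unadjusted p under 0.05). Rab32, which supplies enzymes to melanosomes and other such organelles and joins the phagosome, had overlapping signals of 1089 and 928.2 against 871.4 and 1095 (log2 difference -0.04, 95% interval -0.33 to 0.25). Rab38, its relative, was at -0.09 and Rab29, a partner of the kinase Lrrk2, at 0.06. In the remaining group Rab28 (-0.17), Rab23 (-0.11), both linked to cilia, and Rab40c (-0.05) overlapped between groups and were not called (limma, 0 of 3 at an unadjusted p under 0.05). A dimmer Rab28 probe set lay the other way, at 0.46, without a call.

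Of the 10 genes below the filter, Rab27b, Rab33a, Rab25 and Rab40b had both imatinib arrays below both vehicle arrays, and Rab3a, Rab3b, Rab3c, Rab5b, Rab27a and Rab37 overlapped. Among all genes above the filter, 30.1% lay wholly below and 26.1% wholly above, and no such share was computed for genes below it. Rab33a, a Rab of haematopoietic and neural cells, had 79.0 and 41.4 against 29.4 and 16.2. None of the 10 was called in a limma fit without the filter, where the lowest adjusted p was 0.12, for Rab27b.

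The epithelial Rabs were compared with the phagocyte Rabs as lists, with no test of a list. Of 6 epithelial Rabs (Rab3d, Rab13, Rab17, Rab25, Rab26 and Rab27b), 5 were measured and 3 passed the filter; Rab26 was not analysed here. Of these 3 tested genes, 1 was lower and none higher, with a median log2 difference of -0.43. That median is the value of Rab3d, which was not called. Over the 5 measured genes without a filter the median was also -0.43. All 5 had a negative difference in the fit without the filter.

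Apart from Rab17, Rab3d, a Rab of exocrine and other secretory granules, had 411.2 and 367.1 against 298.6 and 264.1, without overlap (log2 difference -0.43 ± 0.15, SE, adjusted p = 0.086). Rab27b, which tethers secretory granules, had 138.2 and 76.5 against 22.6 and 44.8, below the filter (without it -1.07 ± 0.34, SE, adjusted p = 0.12). A dimmer Rab27b probe set overlapped between groups, with 32.9 and 5.47 against 4.85 and 35.7. Rab13, a Rab of tight junctions that is not limited to epithelium, had overlapping signals of 122.6 and 131.9 against 112.7 and 133.1. Rab25, an epithelial member of the Rab11 subfamily, had signals of 23.9 and 21.1 against 12.0 and 16.4, all far below the filter value of 82.9. In difference, Rab25 (-0.24 without the filter) was closest to Rab3c (-0.23), Rab40b (-0.21) and Rab1b (-0.19), over 2 groups of 2 arrays. Rab25, Rab3c and Rab40b had signals near or below the added 32, which compresses such differences, so their closeness describes no shared pattern.

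Of the phagocyte Rabs, chosen for known places on phagosomes, 14 were measured and 13 tested; Rab35 and Rab39 were not analysed here. Rab43, Rab7 and Rab20 were higher and none was lower, 23.1% and 0% against 6.74% and 8.85% of all genes tested. At an unadjusted p under 0.05 by limma, 7 phagocyte Rabs were higher and 0 lower. Over all 8156 genes tested, 1031 were higher and 1259 lower at an unadjusted p under 0.05. The median log2 difference of the phagocyte Rabs was 0.23, or 0.20 over the 14 without a filter. The arrays lay wholly above vehicle in 8 (61.5%, against 26.1% of all genes tested) and wholly below in 1, Rab22a (7.69%, against 30.1%). A rise was not particular to this list. Among the ER and Golgi Rabs, which include Rab43, 70% lay wholly above and 0% below, with a median of 0.19. Among the recycling Rabs, which include Rab14, it was 28.6% each way. The other members, Rab5a, Rab5c, Rab7b, Rab10, Rab14, Rab22a, Rab31, Rab32, Rab34 and Rab38, were not called. On the probe set used, 5 of the 13 tested had a negative difference. The epithelial and phagocyte medians lay on either side of that of all tested genes, -0.02. The epithelial one rests on 3 tested genes and is the value of Rab3d, which was not called. With array medians set equal the epithelial and phagocyte medians were -0.27 and 0.39. With macrophage identity markers set equal they were -0.86 and -0.20, so the phagocyte median turned negative, and that of all tested genes was -0.45.

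**Figure D3:**
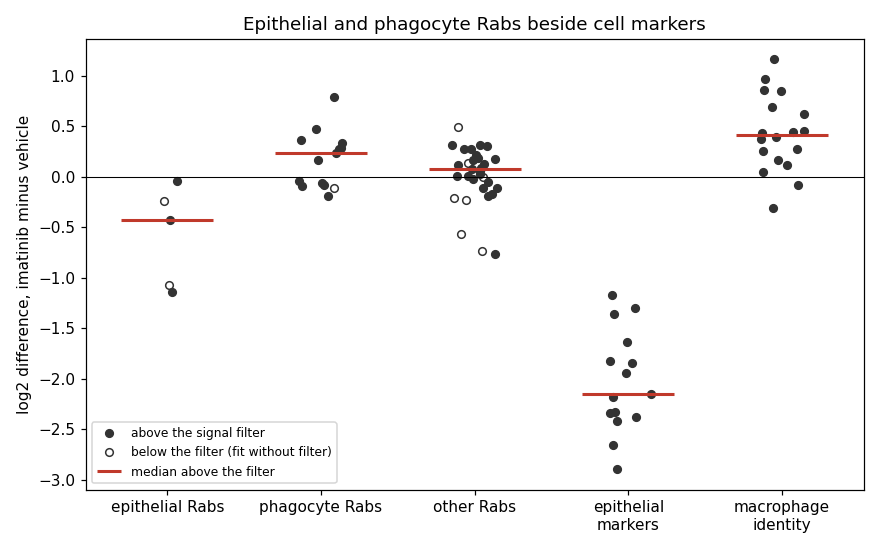
Log2 difference between imatinib and vehicle (vertical axis, log2 units) of epithelial, phagocyte and other Rab genes, beside epithelial and macrophage identity markers; filled points passed the filter, open points did not, and red lines are medians of filled points. Epithelial Rabs lie at or below 0 with a median of -0.43, phagocyte Rabs spread around 0.23, and the epithelial markers lie far lower, around -2.15.

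Markers of some other cell types differed between the groups. Over all genes tested, 6.74% were called higher and 8.85% lower. All 15 epithelial markers on the array, among them Epcam, Cdh1 and Krt8, were lower, with a median log2 difference of -2.15, and their summed signal was 36720 and 36893 with vehicle against 7495 and 7405 with imatinib. None was at 0 on any array, and the lowest value was 19.3, for Cldn4 on an imatinib array. Of 18 macrophage identity genes 12 were higher and 1 lower (Lgals3), with a median of 0.41 and summed signals of 174463 and 175832 against 217347 and 206330. Fibroblast markers were lower for 7 of 12 and markers of GIST and interstitial Cajal cells for 3 of 6. Of 10 T and B cell markers 2 were higher and none lower, with overlapping arrays in 8 and a median of -0.07. Neutrophils are phagocytes too, and of 4 neutrophil markers 1 was higher and none lower, with a median of 0.48. The summed signal of the 6 neutrophil markers on the array was 758.7 and 622.2 with vehicle against 994.8 and 1001 with imatinib. None of 6 endothelial markers was called (limma, 0 at an unadjusted p under 0.05). In such bulk samples, fewer cells of a type and less RNA per cell cannot be told apart. The part of epithelial RNA in the difference of Rab17, and that of macrophage or neutrophil RNA in the 5 higher Rab genes, was not tested. For Gapdh control probes, the 3'/5' ratio, which reflects RNA integrity, also differed: 2.91 and 2.76 under vehicle, 2.34 and 2.09 under imatinib. Its part was not tested either.

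The direction of the higher calls depends on the scale. When the mean of the 18 macrophage identity genes was set equal on all arrays, every log2 difference was lower by 0.43. On that scale Rab43 remained higher (0.36, adjusted p = 0.018), Rab20 was at 0.05 and not called, and Rab7 (-0.069), Rab9 (-0.11) and Rab8b (-0.12) turned negative without a call. In all 1 Rab gene was higher and 18 lower there, against 114 and 4700 of all genes tested. Rab17 was lower on each scale tried, from -1.57 on this one to -0.97 with quantile normalization. With array medians set equal, 10 Rab genes were higher and 1 lower, against 1044 and 506 of all genes. The higher genes made up 5 of 6 Rab calls on the deposited scale.

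**Figure D4:**
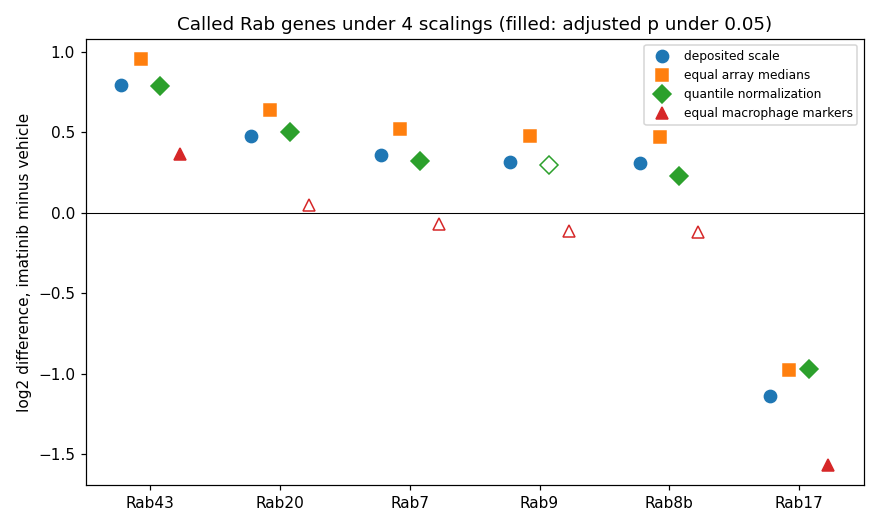
Log2 difference between imatinib and vehicle (vertical axis, log2 units) of the 6 called Rab genes under 4 scalings of the arrays; filled symbols have an adjusted p under 0.05. Rab43 stays above and Rab17 below 0 under each, while Rab7, Rab9 and Rab8b fall just below 0 when macrophage markers are set equal.

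Across the family, 95 probe sets named a single Rab gene and 70 lay above the filter. Of 18 Rab genes with several probe sets above it, all pointed the same way in 8. With each probe set tested on its own, the brightest probe sets of Rab43, Rab7, Rab20 and Rab8b were called higher. So was a dimmer one of Rab14 (log2 difference 0.35, limma adjusted p = 0.049). The brightest probe set of Rab17 and the dimmer one of Rab2a at -0.76 were called lower. Of the 6 called genes, Rab20 and Rab9 have a single probe set.

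**Figure D5:**
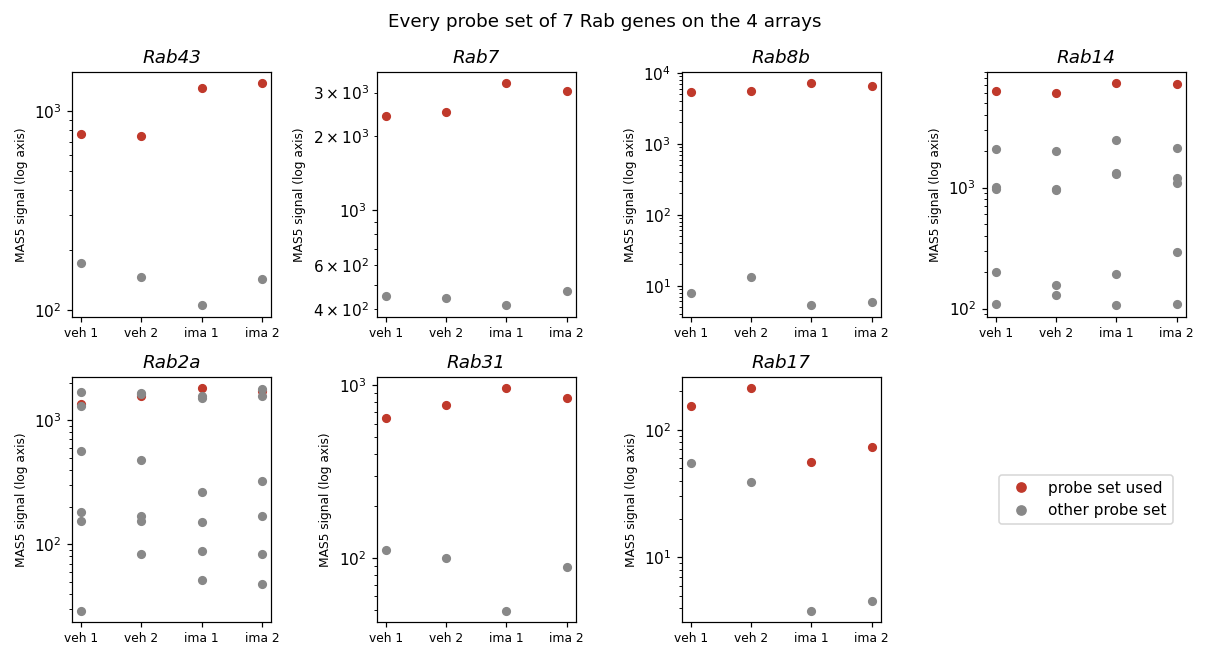
MAS5 signal (vertical axes, log scale) of every probe set of 7 Rab genes on the 2 vehicle (veh) and 2 imatinib (ima) arrays; red marks the probe set used. In Rab43 and Rab7 the red probe set is higher on the imatinib arrays and the dimmer grey one is not, and both Rab17 probe sets are lower.

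Rab43 and Rab7, both higher, are near neighbours on chromosome 6. RefSeq places 6 protein-coding genes between them, of which 5 were on the array and 4 were tested. Of these Cnbp, which encodes a nucleic acid-binding protein, was higher (log2 difference 0.31, adjusted p = 0.015) and Isy1 (0.30), Copg1 (0.12) and Hmces (0.02) were not called.

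Genes that act on Rabs were described from lists of the pathway. Counts at an unadjusted p under 0.05 by limma stand beside 1031 higher and 1259 lower of all 8156 genes tested. Among genes for prenylation and recycling of Rabs, such as Gdi2, Chm and Rabggtb, none of 6 tested was called (limma, 1 higher and 0 lower at an unadjusted p under 0.05), although all 6 had positive differences, from 0.09 to 0.49. Rabif, a chaperone of exocytic Rabs, had the largest, with signals of 159.6 and 161.2 against 238.9 and 238.3 (adjusted p = 0.096).

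Of 14 tested exchange factors, 2 were higher and none lower (2 and 4 at an unadjusted p under 0.05 by limma), with a median of -0.02. The calls were 14.3% and 0%. For this and the following lists, the shares over all genes tested were 6.74% higher and 8.85% lower. Dennd5a, a DENN domain protein that acts on Rab39 and binds Rab6, had vehicle signals of 2543 and 2749 and imatinib signals of 4139 and 3615 (1.46-fold, adjusted p = 0.0025). Sbf2, a myotubularin-related protein with a DENN domain, had 1456 and 1508 against 1935 and 1900 (1.29-fold, adjusted p = 0.019). For both the groups were clearly separate.

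Of 15 tested GTPase-activating proteins, 1 was higher and 1 lower (6.67% each), with a median of 0.07. Tbc1d10a, which acts on Rab27a and Rab35, had 398.1 and 372.9 against 512.5 and 573.9 (1.38-fold, adjusted p = 0.039). Rabgap1l had 197.1 and 200.9 against 103.7 and 57.0 and was lower (log2 difference -1.07, adjusted p = 0.018). Its imatinib mean of 80.4 was under the filter value. Without the filter neither gene was called (adjusted p = 0.079 for Tbc1d10a and 0.074 for Rabgap1l).

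Of 28 tested effectors, 1 was higher and 1 lower (3.57% each), with a median of 0.01. Rilpl2, an effector of Rab8 and Rab10 that binds myosin Va, had signals of 1526 and 1527 against 2778 and 2573 (1.74-fold, log2 difference 0.80 ± 0.09, SE, n = 2, adjusted p = 0.00014). Myo5b, the motor that carries Rab11 and Rab8 vesicles to the apical surface of enterocytes, had 173.2 and 179.1 against 39.4 and 27.8 (log2 difference -1.67 ± 0.28, SE, adjusted p = 0.0020). Its imatinib mean of 33.6 was under the filter value, so Myo5b was tested through its vehicle signals. Without the filter it was also called lower (limma adjusted p = 0.012). The fall of Myo5b stood beside the median of -2.15 of the epithelial markers, whose part in it was not tested. On the scale of equal macrophage markers, 0 of the 14 exchange factors and 1 of the 28 effectors were higher, and 9 and 14 lower. Of all 8156 genes tested, 114 were higher and 4700 lower on that scale.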

How the data were processed

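The authors deposited linear signal intensities. Per the submitters' processing notes, they were made by MAS5 in Affymetrix Expression Console; the sources used here give no version, setting or detection call. The MAS5 method removes background and scales arrays to a common trimmed mean, which after trimming 2% at each end was 500.3 on every array, so a gene's value depends on those of all others. Of 22690 probe sets, 64 controls were left out; 20380 had 1 symbol in the platform annotation (updated by Entrez ID), 691 several and 1555 none.

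A gene was its brightest probe set with 1 symbol, tested if its mean signal reached the 40th percentile of non-control probe sets (82.9), as log2(signal + 32), which understates changes of dim genes. Groups were compared over all genes with limma (two-sided; lmFit, then eBayes with a trend; 8.39 prior and 2 residual degrees of freedom) and Benjamini-Hochberg adjustment. Having 2 arrays per group limits precision. The procedure was tested on simulated data. Named were all called Rabs, the epithelial and phagocyte lists, each role group's brightest member and up to 4 called genes of each pathway list; other Rab genes complete counts and were named after their values were seen. The members, lists, markers and motifs were chosen with earlier results of these data known. Promoters came from RefSeq (GRCm38.p6), for 42 of the 50 genes. Alternatives are given in the closing section. R 4.3.3, limma 3.58.1, Python 3.11.15, pandas 2.3.3, numpy 2.4.6 and matplotlib 3.10.9 were used.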

Additional observations from a re-analysis of the deposited data

How the results depend on the processing

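The count of higher Rab genes, 5, became 2 without the filter, with the mean over probe sets and with the replicate block, 1 without the variance trend and with treat against 1.2-fold, 1 with equal macrophage markers and 10 with equal array medians. It ranged from 1 to 4 with an array left out: 1 (Rab43) without vehicle replicate 1 or imatinib replicate 1. An arm of 1 array was then assumed to vary like the other group. The count of lower Rab genes, 1, became 0 without the filter, with a 60th percentile filter and with treat, 2 with each probe set, 18 with equal macrophage markers and 0 to 1 with an array left out. Over all genes 550 higher became 356 without the filter, 1044 with equal medians, 114 with equal macrophage markers, 196 without the trend, 143 with treat, and 294 to 461 with an array left out. The 722 lower became 4700 with equal macrophage markers, 383 with treat and 488 to 701 with an array left out.

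The Rab median of 0.08 was 0.014 without the filter, 0.15 with the 60th percentile filter, 0.24 with equal medians, -0.35 with equal macrophage markers and 0.04 to 0.12 with an array left out. The epithelial median of -0.43 was -0.27 with equal medians, -0.86 with equal macrophage markers, -0.26 with the mean over probe sets and -0.51 to -0.35 with an array left out. The phagocyte median of 0.23 was 0.20 without the filter, 0.28 with the 60th percentile filter, 0.15 with quantile normalization, 0.39 with equal medians, -0.20 with equal macrophage markers, 0.17 with the mean over probe sets and without _x_at and _s_at probe sets, and 0.18 to 0.25 with an array left out. With equal macrophage markers Rab14 (-0.20), Rab1a (-0.31) and Rab5a (-0.26) were called lower, and Rab7 (-0.069), Rab8b (-0.12) and Rab9 (-0.11) turned negative without a call; that scale subtracts the same value from all genes.

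Over 20 alternatives the call of Rab43 was kept in 19, Rab7 in 14, Rab20 in 12, Rab8b in 11 and Rab9 in 9, and Rab17 in 15 of the 19 that tested it. Causes were not tested. Same-numbered arrays correlated at -0.13 in their deviations from group means. With 2 arrays per group these deviations mirror each other, so whether the numbers in the titles pair the arrays cannot be told. With the number as a block 2 Rab genes were higher and 1 lower, and 421 and 634 of all genes. With crossed numbers, tried after seeing the data, 10 and 3 Rab genes and 880 and 1095 of all genes were called. A filter on the mean log2 signal, also added later, gave 5 and 1.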
